A study of Mus musculus with 32 samples.

Results

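Expression of the endogenous genes behind the MLL-AF9 leukaemia fusion was followed in normal blood-forming cells, from mice whose marrow had also held leukaemic cells and from control mice. The 10 genes were taken by name from the 45706 genes of the deposited tables, not by any measured value: Kmt2a and Mllt3, which the fusion joins, and Men1, Psip1, Mllt1, Dot1l, Mllt10, Aff1, Aff4 and Cdk9, which act with them. All 10 passed the filter on low counts, among 15186 genes tested. The cells were haematopoietic stem and progenitor cells (HSPCs), sorted from mouse marrow for Kit and Sca1 without lineage markers, and of wild-type CD45.1+/2+ donor origin. There were 16 libraries, 4 in each of 4 groups: experienced mice given lipopolysaccharide (LPS, a bacterial product that sets off inflammation), experienced mice given phosphate-buffered saline (PBS), naive mice given LPS and naive mice given PBS.

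Recipients in all groups were lethally irradiated C57BL/6J mice (CD45.2) transplanted with 800000 wild-type marrow cells and 200000 CD45.1 partner cells. In experienced mice, labelled AF9+/+, the partner cells were homozygous for the human transgene hMLL-AF9 and for rtTA, the activator that doxycycline switches on. In naive mice, labelled AF9-/-, they lacked hMLL-AF9 and were homozygous for rtTA. From 6 to 8 weeks after transplantation, doxycycline was given for 5 weeks to start leukaemia and withdrawn for 4 weeks to let it regress. The mice were killed 24 hours after the LPS or PBS injection. The sorted cells were not the cells that carried the fusion, and reads from the human transgene were not analysed here. Nothing in the labels says that replicates came from separate mice. The p-values below therefore measure the spread between these libraries, which may be technical.

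KMT2A is a histone H3 lysine 4 methyltransferase that keeps HOX genes active in blood stem cells. Menin, the product of Men1, and LEDGF, the product of Psip1, bind its amino-terminal part and help to hold it on chromatin. In the fusion that part is joined to the carboxy-terminal end of AF9, the product of Mllt3. AF9 and its paralog ENL, the product of Mllt1, read acylated histones through a YEATS domain and recruit either DOT1L, the histone H3 lysine 79 methyltransferase, with its partner AF10 (Mllt10), or the AFF scaffolds (Aff1, Aff4) with CDK9, the kinase of P-TEFb that releases paused RNA polymerase II.

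The promoters of the pair of genes that the fusion joins are shown because KMT2A itself binds unmethylated CG dinucleotides through its CXXC domain, a domain the fusion keeps. They run 5′ to 3′ from 250 bases before to 50 bases after the gene's start, from RefSeq on GRCm38.p6. Kmt2a lies at chr9:44881240-44881539 and Mllt3 at chr4:88033358-88033657, both on the minus strand. Capitals mark every CG, a motif that reads the same on both strands.
Kmt2a: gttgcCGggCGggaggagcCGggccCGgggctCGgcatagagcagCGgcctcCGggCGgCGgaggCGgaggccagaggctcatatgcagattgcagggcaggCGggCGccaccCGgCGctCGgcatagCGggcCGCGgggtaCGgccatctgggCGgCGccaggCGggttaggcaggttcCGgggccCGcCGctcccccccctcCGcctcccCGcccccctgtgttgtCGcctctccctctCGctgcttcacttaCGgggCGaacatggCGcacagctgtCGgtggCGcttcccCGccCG
Mllt3: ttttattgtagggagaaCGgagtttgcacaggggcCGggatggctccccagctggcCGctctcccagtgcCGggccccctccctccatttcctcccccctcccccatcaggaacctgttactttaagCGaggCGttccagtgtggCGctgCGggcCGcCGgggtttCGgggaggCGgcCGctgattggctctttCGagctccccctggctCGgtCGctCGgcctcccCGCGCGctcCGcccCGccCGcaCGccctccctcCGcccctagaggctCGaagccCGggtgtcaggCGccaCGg
The Kmt2a window held 36 CG and the Mllt3 window 29, against a median of 7 over 32851 mouse promoters of the same length. Of those promoters, 6.23% held at least as many as Kmt2a and 12.9% at least as many as Mllt3, and 94.6% held at least 1 CG. Among the other members, Dot1l had 49 CG, Mllt1 46, Aff4 44, Aff1 40, Cdk9 39, Men1 11 and Mllt10 7. Promoter entries were found for 9 of the 10 genes. No accessibility or methylation data were analysed here, so these counts describe sequence only.

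Library totals ran from 7.72 to 22.3 M expected counts. Some libraries stood apart. Experienced LPS replicate 4 had the lowest total, the highest mitochondrial share (7.30%, against 1.91% to 5.94% in the other 15 libraries) and the fewest genes detected (14921). Its mean correlation with its own group was also the lowest, at 0.915. Experienced LPS replicate 4 and naive LPS replicate 2 also had short transcript models across the transcriptome: 13.8% and 13.6% of 8907 other genes had an RSEM mean transcript length more than 0.5 log2 units below the gene's median over libraries, against 1.02% to 4.27% in the other 14. The comparisons were also fitted without them. Of the sorting markers, Kit was at 115 to 232 TPM (a transcript level scaled for length and library size) in every library, and Ly6a, which encodes Sca1, averaged 172 TPM in experienced LPS, 53.7 TPM in experienced PBS, 185 TPM in naive LPS and 60.4 TPM in naive PBS libraries. The stem and progenitor gene Cd34 averaged 192 TPM in experienced LPS, 394 TPM in experienced PBS, 195 TPM in naive LPS and 396 TPM in naive PBS libraries. Flt3, a receptor of multipotent and lymphoid-primed progenitors, averaged 19.5, 86.3, 12.6 and 95.0 TPM in the same order of groups. Summed T cell markers reached at most 6.13 TPM. Summed neutrophil markers ran from 3.95 to 23.4 TPM in experienced LPS, 13.3 to 80.1 TPM in experienced PBS, 4.09 to 7.28 TPM in naive LPS and 9.64 to 26.6 TPM in naive PBS libraries, with S100a8 above 0 in every library. Summed erythroid markers ran from 3.91 to 41.3 TPM in experienced LPS, 2.74 to 65.4 TPM in experienced PBS, 10.6 to 32.2 TPM in naive LPS and 4.35 to 9.47 TPM in naive PBS libraries. Summed markers of basophils and mast cells, which were higher in the LPS libraries, ran from 146 to 278 TPM in experienced LPS and 34.5 to 113 TPM in experienced PBS libraries, and from 184 to 401 TPM in naive LPS and 31.1 to 61.6 TPM in naive PBS libraries. Summed megakaryocyte markers ran from 258 to 445 TPM in experienced LPS, 117 to 183 TPM in experienced PBS, 288 to 302 TPM in naive LPS and 113 to 234 TPM in naive PBS libraries. Itga2b made up most of this sum, averaging 244, 86.3, 237 and 99.8 TPM in the same order of groups. Pf4 averaged 93.5, 50.6, 43.8 and 70.9 TPM, Gp9 11.7, 11.0, 7.27 and 13.6, and Gp1bb 6.47, 1.74, 4.50 and 2.72. In naive libraries Pf4 and Gp9 were thus lower after LPS, and Itga2b and Gp1bb higher. In bulk RNA, fewer cells of a type and less RNA per cell cannot be told apart, and the part that these markers have in the results was not tested.

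All 10 genes were expressed in every library. Averaged over the 16 libraries, Cdk9 was the highest at 107 ± 24.2 TPM, then Psip1 at 98.5 ± 70.9 TPM and Mllt10 at 70.2 ± 11.0 TPM, and Mllt3 was the lowest at 31.1 ± 17.7 TPM (SD, n = 16). With experienced LPS replicate 4 and naive LPS replicate 2 left out, Psip1 averaged 75.3 ± 19.4 TPM and Mllt3 26.8 ± 12.2 TPM (SD, n = 14), and both kept their rank. The other 6 genes averaged, over all 16 libraries, between 39.6 TPM (Aff1) and 49.1 TPM (Aff4). Mllt3 stood at percentile 72.2 and Cdk9 at percentile 93.1 of mean TPM among the genes tested. In naive PBS libraries the order was Cdk9 (95.0 ± 15.4 TPM), Mllt10 (66.5 ± 13.7), Psip1 (66.3 ± 13.9), Men1 (42.1 ± 7.16), Dot1l (41.7 ± 12.4), Mllt1 (41.5 ± 7.63), Aff4 (41.5 ± 11.2), Kmt2a (39.9 ± 12.5), Aff1 (33.6 ± 8.49) and Mllt3 (24.1 ± 2.57) (SD, n = 4). Every neighbouring pair in that order had overlapping ranges. Mllt3 was last in all 4 groups. The single neighbouring pair whose ranges did not overlap in any group was Mllt10 and Dot1l in experienced LPS libraries, at 56.3 to 79.8 TPM and 43.3 to 53.8 TPM.

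After LPS, none of the 10 genes passed the test in experienced or in naive HSPCs (0 of 10 in each, at a Benjamini-Hochberg adjusted p under 0.05 over all genes, from the quasi-likelihood test of edgeR). Among all tested genes, 12.8% passed in experienced and 21.7% in naive HSPCs. The members' median log2 fold change was 0.07 in experienced HSPCs, beside -0.02 over all tested genes, and 0.15 in naive HSPCs, beside 0.02. At an unadjusted p under 0.05 there were 0 members in experienced HSPCs, where 27.9% of all genes passed, and 3 (Psip1, Mllt10 and Aff1) in naive HSPCs, where 35.4% did. Without experienced LPS replicate 4, Kmt2a and Mllt3 passed as lower after LPS in experienced HSPCs (2 of 10, with 20.3% of all genes passing).

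**Figure D1:**
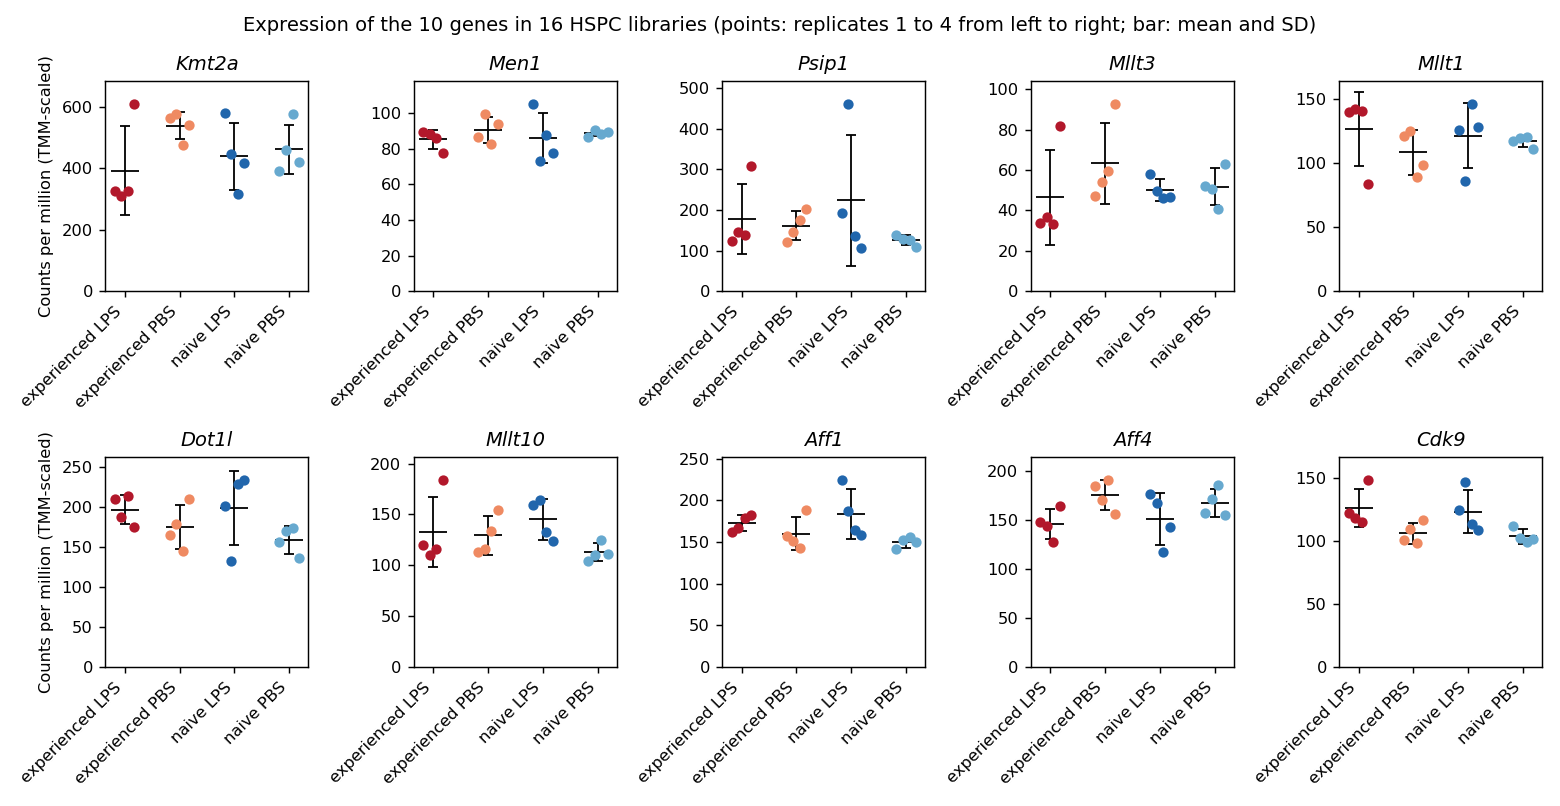
CPM (counts scaled to a common library size by TMM, vertical axis) of each of the 10 genes in each library (points, replicates 1 to 4 from left to right) by group, with the mean and SD as bars. In the experienced LPS group, replicate 4 lies far above the other 3 for Kmt2a (608 against 310 to 327), Psip1, Mllt3 and Mllt10, and far below them for Mllt1.

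Kmt2a (ENSMUSG00000002028, chr9:44803355-44881296 on GRCm38, minus strand) encodes the methyltransferase itself. It had 326, 310, 327 and 608 CPM in experienced LPS libraries, against 565, 577, 476 and 541 CPM in experienced PBS libraries. In naive mice it had 581, 445, 316 and 417 CPM after LPS, against 393, 458, 576 and 419 CPM after PBS. Replicates 1 to 3 of the experienced LPS group lay below every experienced PBS library, replicate 4 lay above all of them, and the naive groups overlapped widely. The log2 fold change was -0.46 (SE 0.22, 95% interval -0.93 to 0.01, adjusted p = 0.188, edgeR's quasi-likelihood test) in experienced HSPCs and -0.07 (SE 0.22, -0.54 to 0.40, adjusted p = 0.857) in naive HSPCs. Without experienced LPS replicate 4, the experienced value was -0.72 (SE 0.18, adjusted p = 0.0102, edgeR).

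Men1 (chr19:6334979-6340891, plus strand), the scaffold that links KMT2A to LEDGF, varied least. It ran from 77.7 to 89.4 CPM in experienced LPS, 82.6 to 99.5 CPM in experienced PBS, 73.3 to 105 CPM in naive LPS and 86.8 to 90.4 CPM in naive PBS libraries. Its coefficient of variation over the 16 libraries was 8.91%, against 12.8% to 52.8% for the other 9 genes. Without experienced LPS replicate 4 and naive LPS replicate 2 it was 7.40%, close to the 7.94% of Cdk9. The log2 fold changes were -0.08 (SE 0.12) and -0.04 (SE 0.12) for LPS in experienced and naive HSPCs, with 95% intervals of -0.34 to 0.17 and -0.30 to 0.21.

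Psip1 (chr4:83455680-83486459, minus strand), whose protein LEDGF binds nucleosomes, varied most over the 16 libraries. Its coefficient of variation without experienced LPS replicate 4 and naive LPS replicate 2 was 20.3%, under that of Mllt3 (29.7%) and Kmt2a (23.5%). It had 124, 146, 138 and 307 CPM in experienced LPS libraries, against 122, 147, 176 and 202 CPM in experienced PBS libraries. In naive mice it had 192, 460, 136 and 106 CPM after LPS, against 138, 130, 127 and 109 CPM after PBS. A single library in each LPS group was far above the rest, and these were the pair with short transcript models. The log2 fold change for LPS was 0.14 (SE 0.37, 95% interval -0.64 to 0.93) in experienced and 0.83 (SE 0.37, 0.04 to 1.61, adjusted p = 0.124, edgeR) in naive HSPCs. Without experienced LPS replicate 4 and naive LPS replicate 2 these were -0.23 (SE 0.19) and 0.22 (SE 0.18). Without naive LPS replicate 4, the lowest library of its group, the naive value was 1.05 (adjusted p = 0.0449, edgeR) and Psip1 was the 1 member of 10 that passed, where 22.4% of all genes did, so the call in naive HSPCs depended on which library was left out. Psip1 overlaps Snapc3 on the opposite strand (19.3 to 38.4 CPM), and nothing in the labels or headers says whether counting used strand.

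Mllt3 (chr4:87769925-88033364, minus strand) encodes AF9. It had 33.8, 37.0, 33.1 and 81.7 CPM in experienced LPS libraries, against 46.9, 54.1, 59.7 and 92.4 CPM in experienced PBS libraries. In naive mice it had 57.8, 49.8, 46.2 and 46.6 CPM after LPS, against 52.0, 50.8, 40.7 and 63.1 CPM after PBS. As with Kmt2a, replicates 1 to 3 after LPS lay below every experienced PBS library and replicate 4 did not. The log2 fold change was -0.45 (SE 0.27, 95% interval -1.02 to 0.11, adjusted p = 0.291, edgeR) in experienced HSPCs and -0.04 (SE 0.27, -0.61 to 0.52) in naive HSPCs. Without experienced LPS replicate 4, the experienced value was -0.84 (SE 0.20, adjusted p = 0.00907, edgeR).

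Mllt1 (chr17:56892611-56935415, minus strand) encodes ENL, which can take the place of AF9 in the same complexes. It had 140, 142, 141 and 83.3 CPM in experienced LPS libraries, against 121, 125, 89.1 and 98.2 CPM in experienced PBS libraries. Naive libraries ran from 85.7 to 146 CPM after LPS and from 111 to 121 CPM after PBS. Here replicates 1 to 3 after LPS lay above every experienced PBS library, and replicate 4 below them. Its log2 fold change was 0.22 (SE 0.18, 95% interval -0.16 to 0.61) in experienced and 0.05 (SE 0.18, -0.33 to 0.44) in naive HSPCs. With both experienced LPS replicate 4 and naive LPS replicate 2 left out, it was 0.40 (SE 0.12, adjusted p = 0.0237, edgeR) in experienced HSPCs, and 0.40 (SE 0.16, adjusted p = 0.0921) without experienced LPS replicate 4 alone.

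The balance of the paralogs varied accordingly. The ratio of Mllt3 to Mllt1 TPM was 0.41, 0.37, 0.31 and 2.76 in experienced LPS libraries, against 0.55, 0.63, 0.90 and 1.86 in experienced PBS libraries. In naive mice it ran from 0.48 to 1.55 after LPS and from 0.49 to 0.70 after PBS. None of the 4 comparisons of this ratio passed a two-sided exact permutation test (n = 4 per group, lowest p = 0.200, adjusted over 8 ratio tests 0.771). When experienced LPS replicate 4 was left out, the log2 ratio averaged -1.47 ± 0.19 in experienced LPS (n = 3) and -0.20 ± 0.79 in experienced PBS libraries (n = 4), with no overlap, at an exact permutation p of 0.0571, the smallest that 3 against 4 can give. Without naive LPS replicate 2 as well, it did not overlap between experienced LPS and naive LPS libraries (-0.73 ± 0.45), at an exact p of 0.10, the smallest for 3 against 3. For the scaffold paralogs Aff1 and Aff4 the lowest p of the same exact test in TPM was 0.143 (adjusted 0.771). In the absence of experienced LPS replicate 4, the log2 ratio in TPM averaged 0.31 ± 0.13 in experienced LPS (n = 3) and -0.45 ± 0.26 in experienced PBS libraries (n = 4), with no overlap, again at the smallest exact p of 0.0571. On the scale of expected counts the same libraries overlapped, at 0.28 ± 0.18 and -0.13 ± 0.29 (exact permutation p = 0.171). In expected counts, the log2 ratio of Aff1 to Aff4 averaged 0.29 ± 0.16 in naive LPS and -0.16 ± 0.08 in naive PBS libraries (SD, n = 4), with no overlap between the groups. Its exact permutation p was 0.0286, the smallest that 4 against 4 libraries can give, and 0.229 after adjustment over the 8 tests. Without naive LPS replicate 2 the groups still did not overlap, at an exact p of 0.0571. In TPM, however, the naive groups overlapped. The exact permutation p in TPM was 0.629 with all libraries and 0.171 without naive LPS replicate 2.

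Dot1l (chr10:80755206-80795461, plus strand), the lysine 79 methyltransferase, had 200, 132, 228 and 233 CPM in naive LPS libraries, against 156, 169, 174 and 136 CPM in naive PBS libraries. All naive LPS libraries but replicate 2 lay above all naive PBS libraries. Experienced libraries ran from 175 to 213 CPM after LPS and from 145 to 209 CPM after PBS. For LPS, the log2 fold change was 0.17 (SE 0.17, 95% interval -0.19 to 0.53) in experienced and 0.33 (SE 0.17, -0.03 to 0.68, adjusted p = 0.179, edgeR) in naive HSPCs. Without naive LPS replicate 2 the naive value was 0.50 (SE 0.14, adjusted p = 0.0230, edgeR), the 1 member of 10 to pass, where 17.4% of all genes did.

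Mllt10 (chr2:18055237-18212388, plus strand) encodes AF10, which lets DOT1L add further methyl groups. It had 159, 164, 133 and 124 CPM in naive LPS libraries, against 104, 111, 125 and 111 CPM in naive PBS libraries. Those groups touched at a single library each. In experienced mice it had 120, 110, 116 and 184 CPM after LPS, against 113, 116, 134 and 155 CPM after PBS. The log2 fold change was 0.03 (SE 0.17, 95% interval -0.32 to 0.38) in experienced and 0.36 (SE 0.17, 0.02 to 0.71, adjusted p = 0.125, edgeR) in naive HSPCs. The experienced value was -0.14 without experienced LPS replicate 4. The naive value passed at 0.38 (adjusted p = 0.0192, edgeR) in a fit without the 2 libraries of highest mitochondrial share, experienced LPS replicate 4 and experienced PBS replicate 4, neither of which is a naive library. Mllt10 overlaps Dnajc1 on the opposite strand (46.8 to 93.1 CPM).

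Aff1 (chr5:103692374-103855322, plus strand), a scaffold of the super elongation complex, was the single member whose naive groups did not overlap (1 of 10, where 29.3% of all genes did not overlap). It had 224, 188, 165 and 158 CPM in naive LPS libraries, against 141, 152, 156 and 150 CPM in naive PBS libraries. In experienced mice it had 163, 167, 179 and 182 CPM after LPS, against 158, 151, 143 and 188 CPM after PBS. Its log2 fold change was 0.11 (SE 0.13, 95% interval -0.16 to 0.38) in experienced and 0.30 (SE 0.13, 0.03 to 0.56, adjusted p = 0.108, edgeR) in naive HSPCs. In the fit without the 2 libraries of highest mitochondrial share the naive value was 0.31 (adjusted p = 0.0490, edgeR). With Mllt10, that made 2 of 10 members in naive HSPCs, where 31.0% of all genes passed. In experienced HSPCs every member's LPS and PBS groups overlapped (0 of 10 apart, where 17.3% of all genes were).

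Aff4 (chr11:53350833-53421830, plus strand), the other scaffold, ran from 128 to 164 CPM in experienced LPS, 156 to 190 CPM in experienced PBS, 117 to 176 CPM in naive LPS and 155 to 186 CPM in naive PBS libraries. Its log2 fold changes for LPS were -0.27 (SE 0.14, 95% interval -0.56 to 0.02) in experienced and -0.15 (SE 0.14, -0.44 to 0.14) in naive HSPCs. Cdk9 (chr2:32705784-32713076, minus strand), the kinase, ran from 116 to 149 CPM in experienced LPS, 98.3 to 117 CPM in experienced PBS, 109 to 147 CPM in naive LPS and 99.3 to 112 CPM in naive PBS libraries. Its log2 fold changes were 0.25 (SE 0.12, 95% interval -0.01 to 0.51) in experienced and 0.25 (SE 0.12, -0.01 to 0.51) in naive HSPCs, with adjusted p of 0.204 and 0.156 by edgeR.

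**Figure D2:**
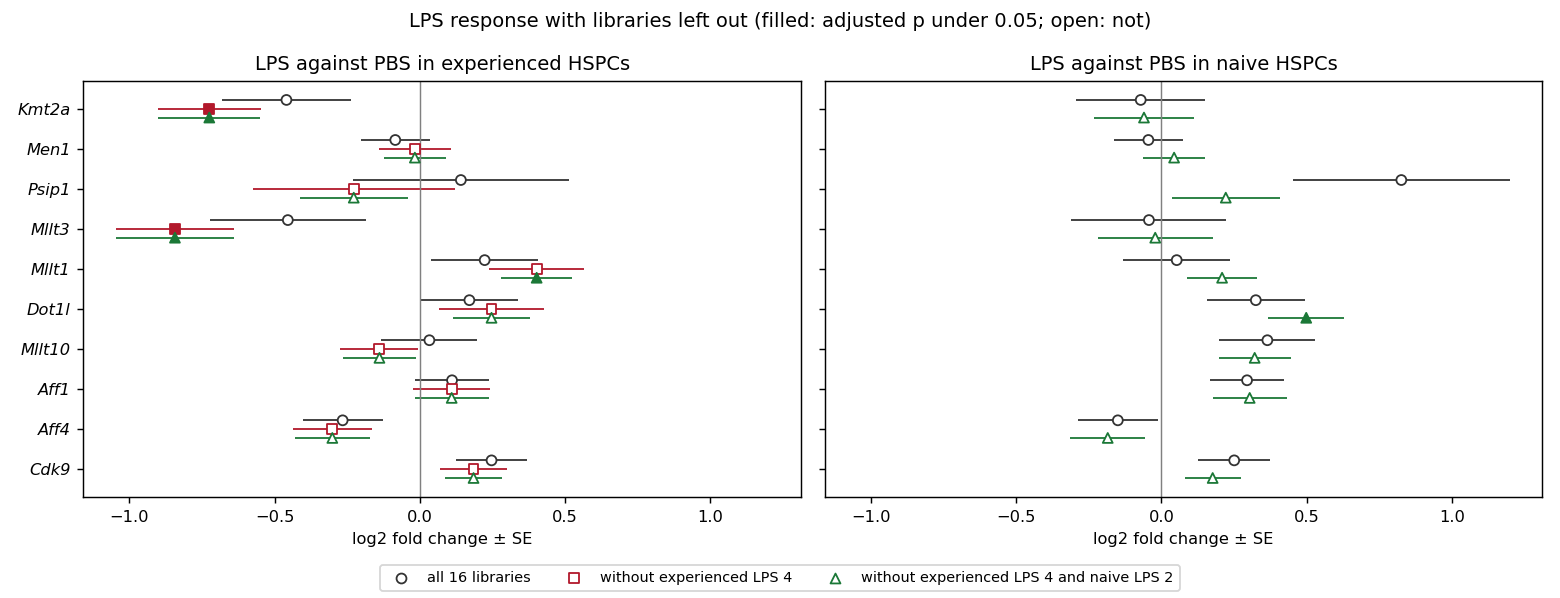
Log2 fold change with SE (horizontal axis) for LPS against PBS in experienced (left) and naive (right) HSPCs, for all 16 libraries (circles), without experienced LPS replicate 4 (squares) and without that library and naive LPS replicate 2 (triangles). Filled symbols passed the test: Kmt2a and Mllt3 in experienced HSPCs under both left-out fits, Mllt1 (experienced) and Dot1l (naive) with both libraries left out.

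With both experienced LPS replicate 4 and naive LPS replicate 2 left out, a choice made after seeing the data, 3 of 10 members passed in experienced HSPCs, where 26.7% of all genes did. These were Kmt2a (-0.72, adjusted p = 0.00756, edgeR), Mllt3 (-0.84, adjusted p = 0.00737) and Mllt1 (0.40). In naive HSPCs 1 of 10 passed, Dot1l (0.50, adjusted p = 0.0123, edgeR), where 26.5% of all genes did. The members' share was thus close to that of all genes in experienced HSPCs and under it in naive HSPCs.

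Between experienced and naive HSPCs, no member passed after LPS or after PBS, and none passed for the interaction (the response to LPS in experienced HSPCs less the response in naive HSPCs, 0 of 10 in each by edgeR's quasi-likelihood test, where 0.0% of all genes passed in all 3). At an unadjusted p under 0.05 there were also 0 members in each, beside 491, 451 and 695 genes of all tested (3.23%, 2.97% and 4.58%). DESeq2 called 2, 2 and 1 genes in these comparisons and 0 members. No member's groups failed to overlap in CPM (0 of 10, where 1.62% of all genes after LPS and 4.04% after PBS did not overlap).

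After PBS, the comparison of remission HSPCs with controls at rest, the log2 differences ran from -0.11 (Mllt1, SE 0.18, 95% interval -0.50 to 0.28) to 0.36 (Psip1, SE 0.37, -0.42 to 1.15). The fused genes stood at 0.22 (Kmt2a, SE 0.22, -0.24 to 0.69) and 0.29 (Mllt3, SE 0.27, -0.27 to 0.85). The members' median was 0.12, beside 0.00 over all tested genes. After LPS they ran from -0.32 (Psip1, SE 0.37, -1.11 to 0.46) to 0.06 (Mllt1, SE 0.18, -0.33 to 0.45), with a median of -0.07 beside -0.02. Without experienced LPS replicate 4, Kmt2a stood at -0.44 (adjusted p = 0.326, edgeR), Mllt3 at -0.53 (adjusted p = 0.318) and Psip1 at -0.70 (adjusted p = 0.417) after LPS. Psip1 stood at 0.31 without naive LPS replicate 2, and at -0.09 without both libraries. The narrowest intervals were those of Men1, -0.22 to 0.28 after PBS and -0.26 to 0.24 after LPS, and a p that misses the threshold does not show that the groups were alike. These comparisons share their libraries with the LPS comparisons.

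The interaction ran from -0.68 (Psip1, SE 0.53, 95% interval -1.79 to 0.43) to 0.17 (Mllt1, SE 0.26, -0.38 to 0.72), with an adjusted p of at least 0.884 for every member by edgeR. Kmt2a stood at -0.39 (SE 0.31, -1.05 to 0.27) and Mllt3 at -0.41 (SE 0.38, -1.21 to 0.39). Without experienced LPS replicate 4 these were -0.67 (adjusted p = 0.215, edgeR) and -0.81 (adjusted p = 0.197). Psip1 stood at -1.06 without that library, at -0.05 without naive LPS replicate 2 and at -0.45 without both. The lower Kmt2a and Mllt3 after LPS in experienced HSPCs that this left-out fit called was therefore not shown to differ from the naive response.

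**Figure D3:**
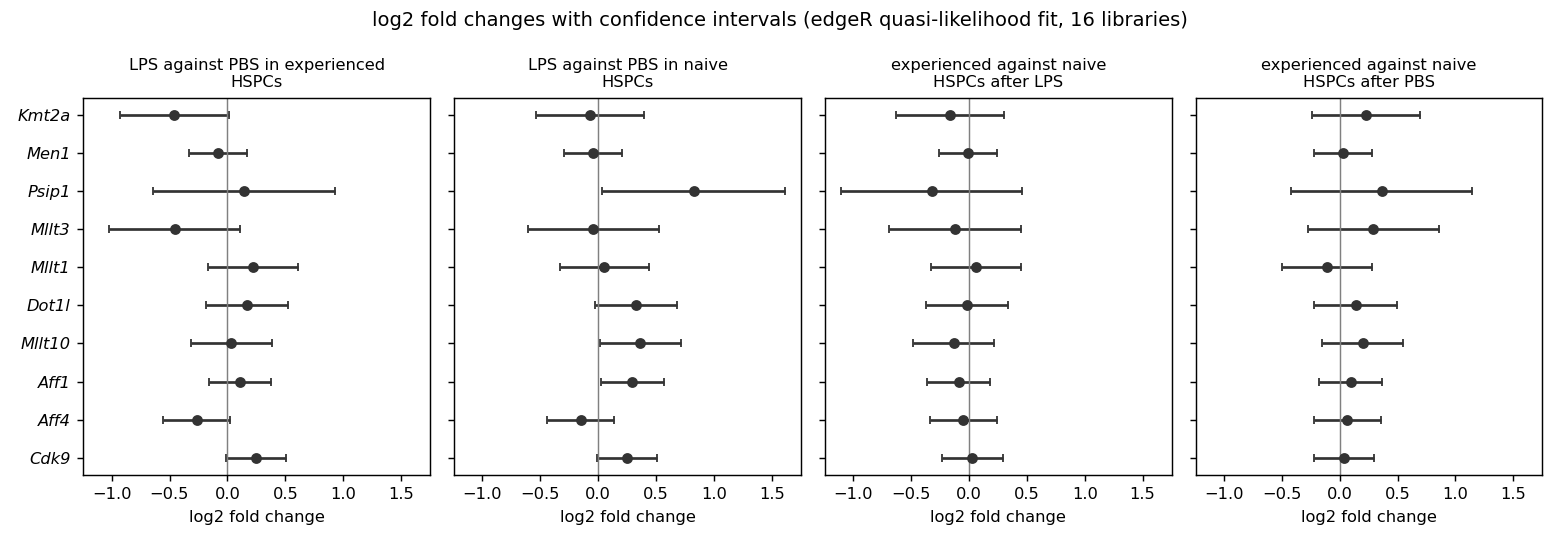
Log2 fold change (horizontal axis, points) with its 95% confidence interval (bars) of each of the 10 genes in 4 comparisons, from left to right: LPS against PBS in experienced and in naive HSPCs, and experienced against naive HSPCs after LPS and after PBS. In both comparisons of experienced with naive HSPCs the intervals of all 10 genes include 0, and Psip1 has the widest in every panel.

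The deposited tables also give each gene's mean transcript length, weighted by isoform abundance, on which TPM depends. For Kmt2a it was 9844 bases in experienced LPS replicate 4, 9611 in experienced PBS replicate 4, 11557 in naive LPS replicate 1 and 9966 in naive LPS replicate 2, against 13574 to 16444 bases in the other 12 libraries. For Aff4 the same 4 libraries had 2478, 2640, 3060 and 1876 bases, against 4514 to 6702 bases in the others. The annotated isoforms of Kmt2a include a pair of 16470 and 16461 bases and shorter models of 4336, 4081 and 2146 bases. Lower mean lengths thus stand for more reads assigned to short models, and whether the RNA or the library differed was not tested.

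In these libraries TPM and CPM parted. Kmt2a was at 25.9, 23.4, 23.7 and 74.9 TPM in experienced LPS libraries, against 48.9, 51.3, 36.3 and 67.1 TPM in experienced PBS libraries. Mllt3 was at 19.4, 17.0, 14.0 and 79.4 TPM in experienced LPS libraries, against 25.5, 29.2, 29.3 and 62.4 TPM in experienced PBS libraries. Its mean length was 1380 bases in experienced LPS replicate 4, against 2211 to 2740 bases in the other 3. Psip1 reached 332 TPM in naive LPS replicate 2, at a mean length of 1679 bases. Replicate 4 was the highest of its group for Kmt2a and Mllt3 on both scales, and its distance from the others was larger in TPM. Across the 16 libraries, which share depth and isoform assignment, Pearson's r of log2 TPM with length was -0.89 for Aff4, -0.80 for Mllt3 and -0.69 for Kmt2a, and of log2 CPM with length -0.30, -0.41 and -0.47. Without the pair of libraries with short transcript models, the values were -0.82, -0.68 and -0.61 for TPM and -0.32, -0.29 and -0.43 for CPM. In some other members CPM followed length more closely. Over the 16 libraries its r was -0.79 for Psip1, -0.67 for Aff1, -0.63 for Cdk9 and 0.76 for Mllt10. It was -0.39 for Dot1l and -0.04 for Men1. Without that pair of libraries, the CPM values were 0.04 for Psip1, -0.64 for Aff1, -0.007 for Cdk9 and 0.60 for Mllt10. They were -0.19 for Dot1l and 0.23 for Men1. Mllt1 has a single model of 3608 bases in the tables, so its length was the same in every library.

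**Figure D4:**
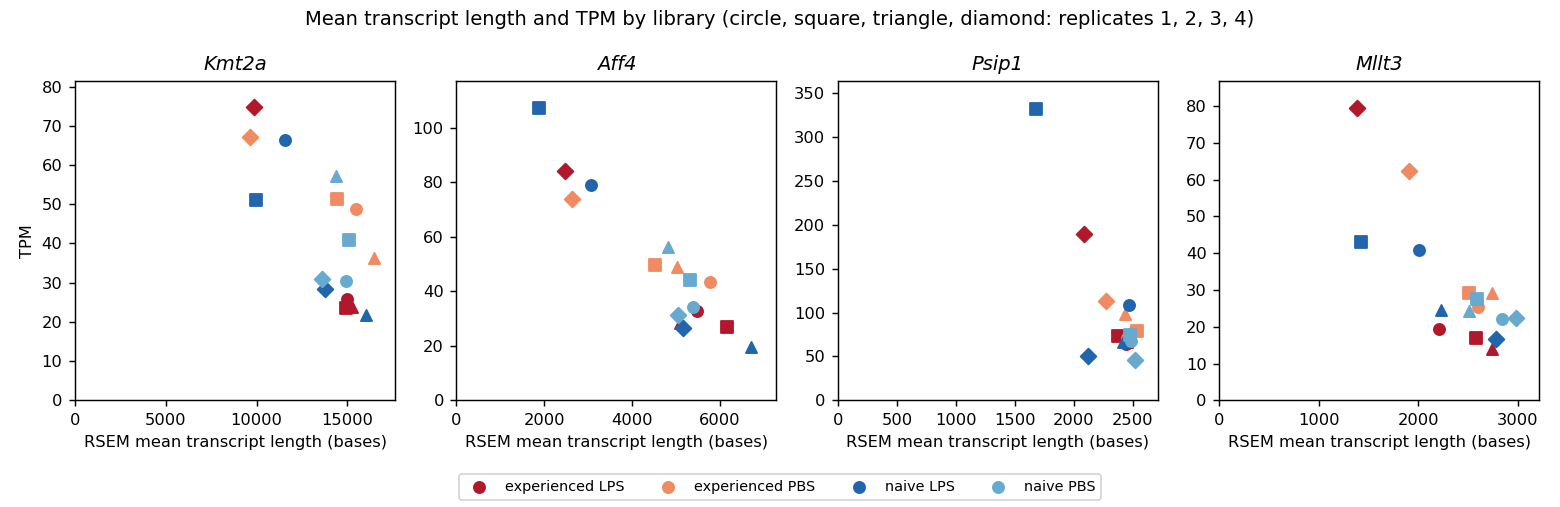
TPM (vertical axis) against RSEM mean transcript length in bases (horizontal axis) for Kmt2a, Aff4, Psip1 and Mllt3, 1 point per library, with colour for group and shape for replicate. For Aff4 the 4 libraries of 1876 to 3060 bases hold the 4 highest TPM values, and for Psip1 naive LPS replicate 2 lies apart at 332 TPM.

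None of the 40 length comparisons (10 genes by 4 comparisons of groups) passed after adjustment. At an unadjusted p under 0.05 there was 1: Psip1 averaged 2169 bases in naive LPS and 2486 bases in naive PBS libraries, with no overlap (two-sided exact permutation p = 0.0286, n = 4 per group, adjusted p = 0.857).

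Related genes were counted by 5 lists of textbook members, chosen with earlier results of these data known and given as counts without a set test. No list had a called gene in the comparisons of experienced with naive HSPCs or in the interaction, so the values below are for LPS against PBS, by edgeR's quasi-likelihood test adjusted over all genes. Of all tested genes, 4.52% were higher and 8.26% lower in experienced HSPCs, and 9.81% were higher and 11.9% lower in naive HSPCs.

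Of 19 other genes of H3K4 methyltransferase complexes, 0 passed in experienced HSPCs and 2 rose in naive HSPCs. These were Dpy30, a core subunit, by 0.56 log2 units (SE 0.19, adjusted p = 0.0476), and Cxxc1, the CG-binding subunit of the SETD1 complexes, by 0.53 (SE 0.17, adjusted p = 0.0370). Dpy30 missed the threshold in 7 of the 8 fits that left out 1 library (adjusted p 0.0535 to 0.122, all but the fit without naive PBS replicate 4) and Cxxc1 in 7 of 8 (0.0555 to 0.120, all but that without naive LPS replicate 4). Kmt2c, the catalytic subunit of a related complex, had 237 ± 75.7 CPM in experienced LPS and 322 ± 9.33 CPM in experienced PBS libraries (SD, n = 4, log2 fold change -0.44, adjusted p = 0.162). It passed as lower once experienced LPS replicate 4 and naive LPS replicate 2 were left out. Without those libraries 1 gene rose and 2 fell in experienced HSPCs, and 5 rose in naive HSPCs, where 26.7% and 26.5% of all genes passed in that fit. The list's median was 0.05 in experienced and 0.22 in naive HSPCs.

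Of 12 tested genes of the super elongation complex and P-TEFb, 1 fell in experienced HSPCs, and 1 rose and 1 fell in naive HSPCs. The lower gene was Aff3 in both, a paralog of Aff1 and Aff4 that is itself a known fusion partner. It had 173 ± 32.8 CPM in experienced LPS and 321 ± 74.2 CPM in experienced PBS libraries, and 177 ± 38.4 CPM in naive LPS and 341 ± 28.1 CPM in naive PBS libraries (SD, n = 4 each). Its log2 fold changes were -0.89 (SE 0.19, adjusted p = 0.00596) and -0.95 (SE 0.19, adjusted p = 0.00260). Eaf1, an ELL-associated factor, rose by 0.61 (SE 0.15, adjusted p = 0.0106) in naive HSPCs. Without the pair of libraries with short transcript models, 1 gene rose and 1 fell in experienced HSPCs, and 3 rose and 1 fell in naive HSPCs, where 26.7% and 26.5% of all genes passed in that fit. The list's median was -0.04 in experienced and 0.34 in naive HSPCs.

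Of 16 genes of pausing factors, the Paf1 complex and other elongation factors, Wdr61 rose in experienced HSPCs, to 59.0 ± 9.68 CPM after LPS, against 37.3 ± 1.73 CPM after PBS (log2 fold change 0.66, SE 0.13, adjusted p = 0.00450). In naive HSPCs 2 rose, both linked to the Paf1 complex: Cdc73 by 0.55 (SE 0.16, adjusted p = 0.0196) and Rtf1 by 0.68 (SE 0.23, adjusted p = 0.0430). Without naive PBS replicate 2 the adjusted p of Cdc73 was 0.0540. Rtf1 missed the threshold in 6 of the 8 fits that left out 1 library (0.0677 to 0.146), and passed without naive LPS replicate 3 or without naive LPS replicate 4. The list's median was 0.21 in experienced and 0.38 in naive HSPCs, and none of its genes fell. Without the pair of libraries with short transcript models, 5 rose in experienced and 3 in naive HSPCs, where 26.7% and 26.5% of all genes passed in that fit.

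Of 15 other genes known as KMT2A fusion partners, 3 fell in experienced HSPCs and 6 in naive HSPCs, and none rose. Tet1, a 5-methylcytosine dioxygenase, had 56.4 ± 3.77 CPM in experienced LPS and 115 ± 10.8 CPM in experienced PBS libraries, and 59.2 ± 14.7 CPM in naive LPS and 125 ± 10.9 CPM in naive PBS libraries (SD, n = 4 each). Its log2 fold changes were -1.03 (SE 0.15, adjusted p = 0.000489) and -1.08 (SE 0.15, adjusted p = 0.000186). Foxo3, a transcription factor that maintains blood stem cells, stood at -0.68 (adjusted p = 0.00719) and -0.62 (adjusted p = 0.00809). Mllt11 fell by 0.84 in experienced HSPCs (adjusted p = 0.00973), and Mllt6, the paralog of Mllt10, fell by 0.80 in naive HSPCs (adjusted p = 0.00770). The list's median was -0.31 in experienced and -0.37 in naive HSPCs. Without the pair of libraries with short transcript models, 6 fell in experienced HSPCs, and 6 fell and 1 rose in naive HSPCs, where 26.7% and 26.5% of all genes passed in that fit. In that fit Mllt11 passed as lower in both experienced and naive HSPCs, and Mllt6 in naive HSPCs only. At most 3 called genes per direction were named for each comparison. A gene named for 1 comparison may thus have passed in the other with all libraries too.

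Of 15 tested genes known as targets of MLL-AF9 in leukaemia, 6 fell and 0 rose in experienced HSPCs, and 9 fell and 2 rose in naive HSPCs. Mecom, a stem cell transcription factor, stood at -1.84 (SE 0.20, adjusted p = 4.64e-05) in experienced and -2.03 (SE 0.20, adjusted p = 1.11e-05) in naive HSPCs. Hoxa9 fell by 0.98 in experienced HSPCs (SE 0.15, adjusted p = 0.000707), to 41.6 ± 3.69 CPM after LPS, against 81.9 ± 8.60 CPM after PBS. Runx2 stood at -0.96 (adjusted p = 0.00145) and -1.22 (adjusted p = 0.000150), and Eya1 fell by 1.12 in naive HSPCs (adjusted p = 0.00182). Zeb2 rose by 1.05 (SE 0.28, adjusted p = 0.0142) and Myb by 0.79 (SE 0.25, adjusted p = 0.0354) in naive HSPCs. Myb missed the threshold in 6 of the 8 fits that left out 1 library (0.0653 to 0.120), and passed without naive LPS replicate 3 or without naive LPS replicate 4. The list's median was -0.52 in experienced and -0.60 in naive HSPCs. Without the pair of libraries with short transcript models, 8 fell in experienced HSPCs, and 10 fell and 2 rose in naive HSPCs, where 26.7% and 26.5% of all genes passed in that fit. Hoxa9 and Eya1 were in that fit among the genes that passed as lower in both. With all libraries, at most 3 called genes per direction were named here too, so others may also have passed in both.

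**Figure D5:**
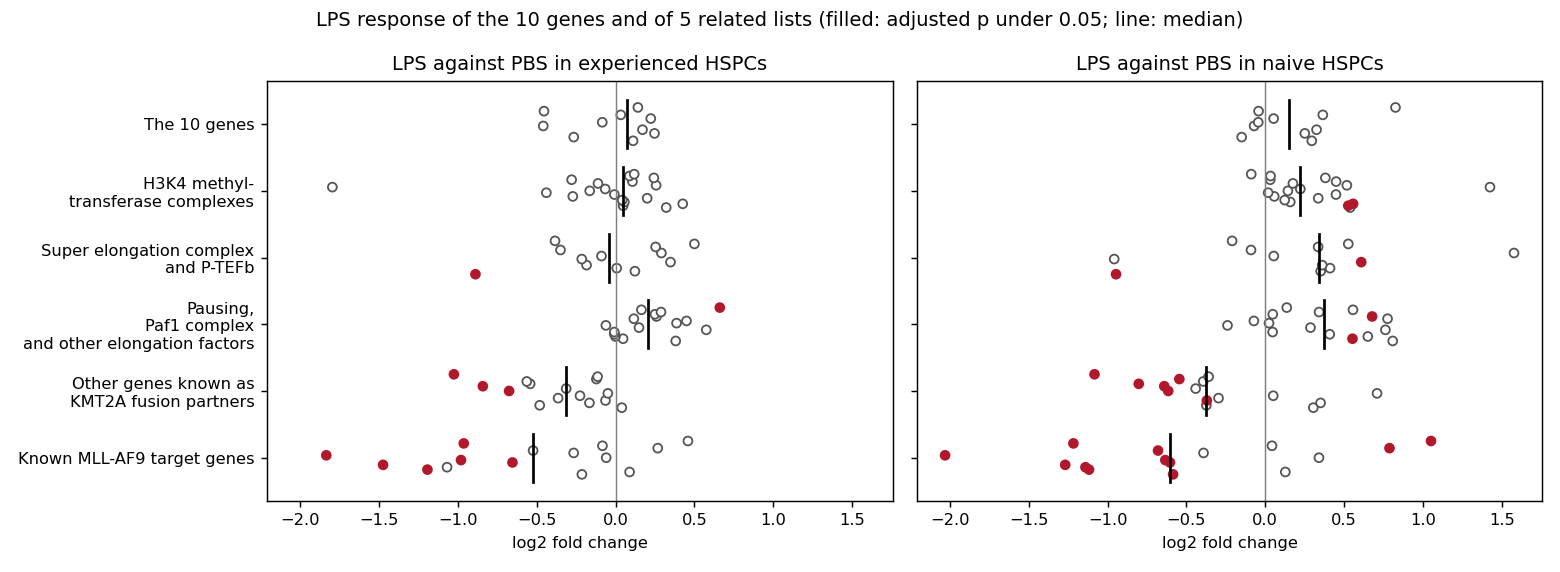
Log2 fold change (horizontal axis) for LPS against PBS in experienced (left) and naive (right) HSPCs of the 10 genes and of 5 related lists, 1 point per gene, filled where the adjusted p is under 0.05, with a line at each list's median. None of the 10 genes is filled, while filled points of the target and fusion partner lists lie mostly below 0. The isolated open point near the left edge of the methyltransferase list is Pagr1a (-1.80, SE 1.70).

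Over the 16 libraries, the genes whose log2 CPM followed Kmt2a most closely were Epc1 (Pearson's r = 0.97, and 0.95 for residuals from group means), Kmt2c (0.96 and 0.95) and Pitpnc1 (0.94 and 0.93), of 12559 genes compared. For Mllt3 they were Klf3 (0.91 and 0.93), Fads2 (0.91 and 0.91) and Zkscan1 (0.91 and 0.89). For Dot1l they were Zfp598 (0.93 and 0.92), Abhd16a (0.92 and 0.92) and Traf7 (0.92 and 0.90). Among the members, the residuals of Psip1 and Cdk9 had r = 0.89 and those of Psip1 and Mllt1 r = -0.86. These were 0.62 and -0.45 without experienced LPS replicate 4 and naive LPS replicate 2, and the residuals of the 9 genes named above had r of 0.78 (Zkscan1) to 0.93 (Epc1) with their member. These are descriptions over libraries that share depth and the library differences given above.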

How the data were processed

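Samples were grouped by their titles, 4 libraries per group, with 1 table per biological replicate. The labels list 2 technical replicates for each and do not say whether reads were merged. They name a column kit for RNA and a single-cell droplet chemistry for libraries. Per the submitters' processing notes, the tools were RSEM 1.3.1, STAR 2.7.10a and Trim Galore 0.6.7, on GRCm38. No source used here gives the annotation release or strand setting. The deposited tables hold RSEM expected counts, TPM and a mean transcript length per gene, per the file headers. RSEM divides reads shared between genes or isoforms, so values of overlapping genes are uncertain. GENCODE's annotation of GRCm38 gave symbols for 45143 of 45706 identifiers, and coordinates.

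Expected counts were rounded, filtered by edgeR's filterByExpr (15186 genes, 99.928% of counts) and scaled by TMM. A quasi-likelihood fit in edgeR 4.0.16 (R 4.3.3) gave each group a mean over all 16 libraries, with Benjamini-Hochberg adjustment over all genes and a call at an adjusted p under 0.05. CPM used TMM-scaled totals, and correlations used log2 CPM with a prior count of 2. Lengths and paralog ratios were compared by exact permutation tests (scipy 1.17.1), whose smallest p is 0.0286. Alternatives were other size factors, DESeq2 1.42.0, no filter, limma 3.58.1 on log2(TPM + 1) and log2(TPM + 0.1), the compared groups alone, a replicate block and left-out libraries. The fit was tested on simulated data. Named genes were the 10 members, at most 3 called genes of lowest adjusted p per direction, list and LPS comparison, and the 3 genes most correlated with each of Kmt2a, Mllt3 and Dot1l. Kmt2c and Pagr1a as list genes, and the member pairs with Psip1, were chosen after their values were seen. Members and lists were chosen with earlier results of these data known. Among the list genes, Aff2 and Ell3 did not pass the filter. Some items are not reported here.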

Additional observations from a re-analysis of the deposited data

Results flagged for a closer look

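In groups of 4 libraries, a member's CPM or mean length was set apart when the gap between its extreme library and the next took more of the group's range than the 95% critical value of Dixon's test, and chance flags about 1 in 20 groups by that rule. Of 76 groups examined, 10 met it. In CPM all 5 were experienced LPS replicate 4: Kmt2a (608), Psip1 (307), Mllt3 (81.7) and Mllt10 (184) were far above the other 3 libraries, and Mllt1 (83.3) was far below them. In mean transcript length the same library stood apart for Kmt2a (9844 bases), Aff1 (4240 bases) and Men1 (2858 bases, the longest of its group). Men1 was also set apart in experienced PBS replicate 3 (2290 bases) and naive PBS replicate 3 (2634 bases), both the shortest of their groups. That library's mitochondrial share was 7.30%, its total 7.72 M counts, and its part in these values beyond what the fits without it show was not tested.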

How the results depend on the processing

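Of 543 member values under alternatives, 502 kept their direction and side of the threshold, 12 passed it newly and 29 changed sign, none of these with an adjusted p under 0.05 and none over 0.31 in size. The count of members called stayed 0 in the comparisons of experienced with naive HSPCs and in the interaction. With 1 library of the compared groups left out, it was 0 to 2 for LPS in experienced HSPCs and 0 to 1 for LPS in naive HSPCs: Dot1l without naive LPS replicate 2 (17.4% of all genes called) or Psip1 without naive LPS replicate 4 (22.4%). Without the 2 libraries of highest mitochondrial share it was 2 in experienced (21.7% of all genes, Kmt2a -0.72 and Mllt3 -0.61) and 2 in naive HSPCs (31.0%). Without the 2 libraries of most shortened genes, chosen after seeing the data, it was 3 and 1. The cause was not tested. Length and ratio counts were 0, but the comparisons that a left-out library touches cannot go below an exact p of 0.0571.

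Among the values listed under alternatives, sign changes were as follows. With upper-quartile factors, Mllt1 in naive HSPCs was -0.023. With limma on log2(TPM + 1) and log2(TPM + 0.1), Psip1 (-0.016 and -0.017) and Mllt10 (-0.21 in both) changed in experienced HSPCs, and Mllt3 (0.27), Mllt1 (-0.10) and Aff4 (0.18) in naive HSPCs. With 1 library left out, values ran across 0 for LPS in experienced HSPCs for Psip1 (-0.23 to 0.29) and Mllt10 (-0.14 to 0.15). In naive HSPCs they did for Men1 (-0.16 to 0.043), Kmt2a (-0.23 to 0.058), Mllt1 (-0.048 to 0.21) and Mllt3 (-0.14 to 0.080). Between experienced and naive HSPCs after LPS they did for Mllt3 (-0.53 to 0.013) and Psip1 (-0.70 to 0.31). Without the high mitochondrial libraries Psip1 was -0.10 and Mllt10 -0.042 in experienced HSPCs. Without the shortened libraries Psip1 was -0.23 and Mllt10 -0.14 in experienced and Men1 0.044 in naive HSPCs.

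Over all genes, the calls for LPS in experienced HSPCs (1940) were 1065 to 3157 with 1 library left out (3157 without experienced LPS replicate 4), 1179 with the 2 groups alone, 1132 and 1107 with limma, 3360 without the high mitochondrial libraries and 4131 without the shortened ones. For naive HSPCs (3293) limma gave 1880 and 1772, and the lowest count with 1 library left out was 2089 (without naive PBS replicate 2). Limma on TPM moved the median of all genes to -0.13 and -0.17 in experienced and to -0.09 and -0.11 in naive HSPCs. Of 22 calls named among list genes, 12 held under every alternative. The other 10 missed the threshold under at least 1, all with their sign kept. With limma on log2(TPM + 1) and log2(TPM + 0.1) alone, Aff3 (adjusted p 0.0899 and 0.0916) and Wdr61 (0.0928 and 0.0908) missed it in experienced HSPCs. Eaf1 (0.176 and 0.173), Eya1 (0.0968 and 0.0997) and Zeb2 (0.133 and 0.136) did so in naive HSPCs. Dpy30, Cxxc1, Cdc73, Rtf1 and Myb missed it in the left-out fits given above and with both limma settings. Their limma adjusted p were 0.151 and 0.150 (Dpy30), 0.314 and 0.316 (Cxxc1), 0.451 and 0.450 (Cdc73), 0.337 and 0.342 (Rtf1), and 0.220 and 0.222 (Myb). All of these but Cdc73 also missed it with upper-quartile factors and with the replicate block. With replicate number as a block, 0 members were called in each comparison. Same-numbered libraries did not deviate together more than others did (24 pairs, r -0.22 to 0.32, 4 over 0.1). The 72 pairs of different number had r of -0.39 to 0.32, with 18 over 0.1. Correlations of so few libraries cannot decide whether the numbers pair libraries.

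Between groups of 4 libraries the members' 95% intervals were 0.50 (Men1) to 1.58 (Psip1) log2 units wide, which limits the differences these libraries could show.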
